A study of Helianthus annuus with 142 samples.

Results

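The genes described here lie along chromosome 5 of sunflower, Helianthus annuus, and were measured in leaves of stressed and well-watered plants. They were selected on measured values. Of 3499 chromosome 5 genes in the deposited count table, 1773 had a mean of 1 to under 1000 CPM (a count divided by the total of its library, on a fixed scale that makes libraries comparable) over both water supplies and a log2 ratio of stress to control between -3 and 3, after adding 0.5 CPM to both means. These 1773 genes, called the members, are set against 58050 genes in the whole table and against the 28677 genes that the same limits keep on all 17 chromosomes. Of the other genes on the chromosome, 1689 had a mean under 1 CPM, 6 had a mean of 1000 CPM or more, 22 reached a log2 ratio of 3 and 9 fell to -3 or below. The member with the lowest mean stood at 1.00 CPM and the nearest gene below the limit at 0.998 CPM. At the other end the nearest values were 901 CPM inside and 1017 CPM outside. The nearest log2 ratios were 2.85 inside and 3.09 outside for higher levels under stress, and -2.93 inside and -3.01 outside for lower levels.

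The plants were 16 hybrids and 8 lines, each under water deficit, sampled at a fraction of transpirable soil water (FTSW) of 0.1, and under full watering, at an FTSW of 1. FTSW is the part of the soil water a plant can use that is still in the pot. The hybrids cover each combination of a first-named line (SF009, SF092, SF109 or SF193) with a second-named line (SF279, SF317, SF326 or SF342), and which of them bore the seed is not stated in the labels. There were 72 stress and 70 control libraries, 3 for each combination of genotype and water supply, except 1 control library of SF342. Each library came from its own pot, thinned to a single plant. Library totals ran from 2796719 to 13765614 counts, and the members took 3.13% to 4.94% of them. The deposited identifiers match 0 of 83308 genes in a RefSeq table, so the files pair no member with a name or function, and the leaf label could not be checked against leaf marker genes. Members are therefore grouped by place, level and state, and positions are printed as the count table has them, with a genome build that no source used here names.

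The genotype labels were compared with the on and off states of 7086 genes over the whole table. For 3 libraries the states were closer to those of another genotype than to those of their own label. The library labelled SF092 × SF317 stress 3 shared 63.5% of states with its label and 99.5% with SF326. The library labelled SF326 stress 3 shared 59.1% with its label and 99.1% with SF092 × SF317. The library labelled SF009 × SF279 control 1 shared 80.3% with its label and 88.7% with SF009 × SF326. Libraries of the line SF009 shared 87.1% to 92.3% of states with their label, whereas the lowest value in the other lines, the doubted library aside, was 97.5%. Many, but not all, of the results that could rest on these libraries are given with and without them. The set without them drops the 3 libraries and all libraries of the lines SF009 and SF092. The line SF092 showed many expressed genes that its hybrids lacked. The line SF326 was kept, although its hybrids also departed from their labelled parents. In that set, on chromosome 5, SF109 × SF326 matched its parents in 80.6% of clear states and SF193 × SF326 in 93.3%.

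In an inbred line the genes of a stretch of chromosome are inherited together, so neighbouring genes carry the same ancestral version of that stretch, a haplotype. Plant genomes differ between lines in the presence of whole genes as well as in the sequences that set their level, and a hybrid receives a copy of each parental chromosome. A gene that works in a single parent can then be read from a single copy in the hybrid. In sunflower, as in many plants with large genomes, genes are sparse in the middle of a chromosome, where recombination is rare, and dense towards its ends.

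The members followed that layout. The 22 windows of 10 Mb, numbered from 1 at the start of the deposited coordinates, held a median of 77 members. The lowest count was 26 members among 87 genes at 60 to 70 Mb (window 7), and the highest was 169 members among 291 genes at 200 to 210 Mb (window 21). The first 5 windows held 425 members, the next 6 held 270, and the last 5 held 640. The share of genes that were members ran from 29.9% in window 7 to 62.1% at 90 to 100 Mb (window 10). The median level of members per window lay between 6.85 and 13.9 CPM.

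Under water deficit, members were called higher and lower in nearly equal numbers. Averaged over the 24 genotypes with equal weight, 655 members were called higher and 650 lower in stress than in control (edgeR quasi-likelihood F-test, Benjamini-Hochberg adjusted p under 0.05 over 36989 genes). These shares of 36.9% and 36.7% stand beside 31.4% of all tested genes called higher and 32.6% called lower, and nothing is read from the comparison, because stress and control levels were used to choose the members. These sizes are a description too, since the limits on the log2 ratio removed 22 genes on the higher side and 9 on the lower side. The median log2 fold change was -0.72 over the 650 lower members and 0.47 over the 655 higher ones, with 244 members lower by over 2-fold and 113 higher by over 2-fold. In bulk leaves, fewer cells of a type and less RNA per cell cannot be told apart. The numbers depend on scaling. With library totals alone in place of TMM factors, 836 members were higher and 498 lower, and higher calls made up 62.7% of the calls in place of 50.2%; the median log2 fold change of all tested genes then moved by 0.20.

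A group of 298 members had 0 counts in every library of at least 1 genotype and water supply. An average of log2 changes over genotypes has no finite value for such a gene, and the edgeR test called 61 of these members, against 170 by limma voom and 171 by DESeq2. Among the other 1475 members the counts were close, with 613 higher and 631 lower by edgeR, 612 and 642 by voom, and 635 and 621 by DESeq2.

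**Figure D1:**
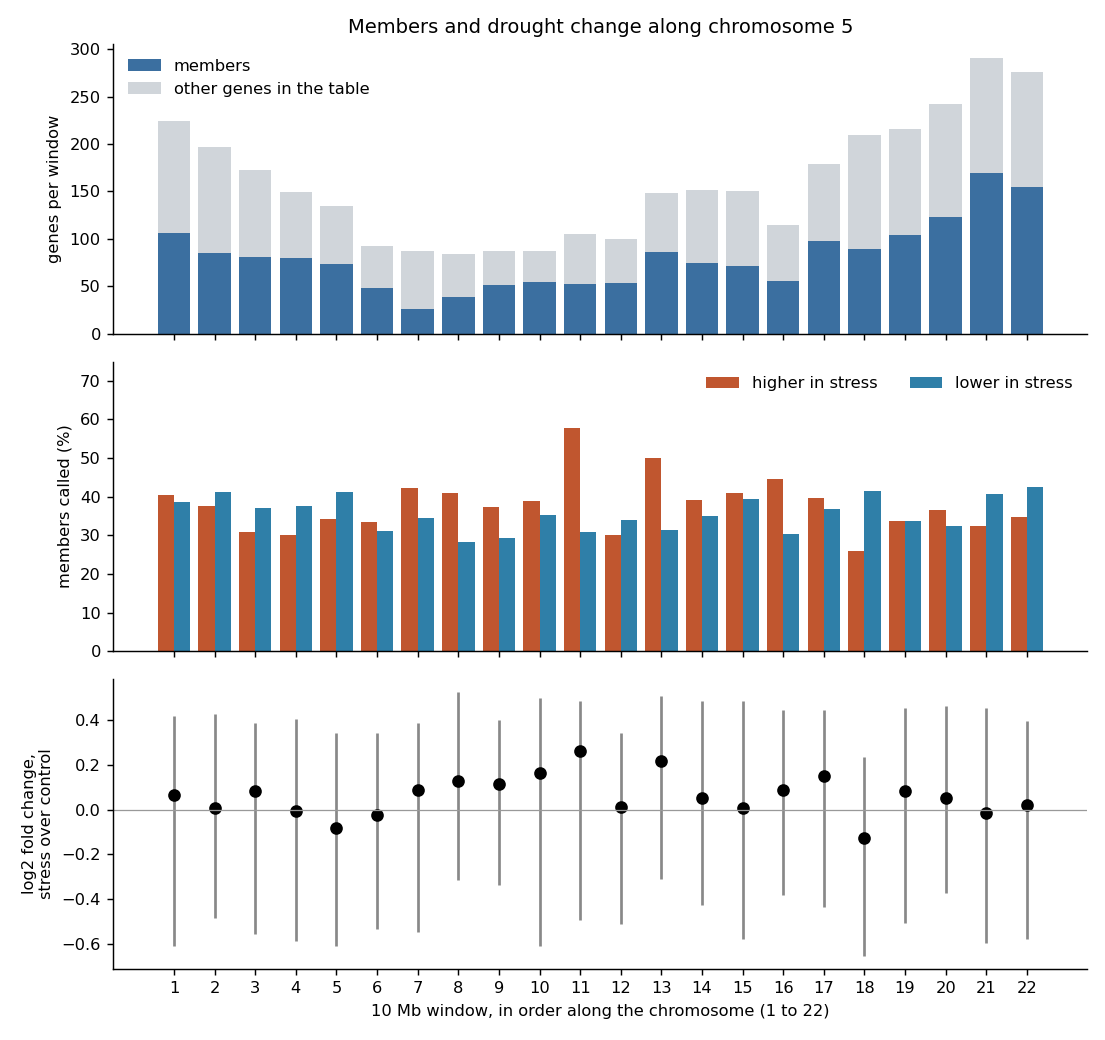
Members along the chromosome in 22 windows of 10 Mb. Top, stacked bars of genes per window, members and other genes; middle, percent of members called higher or lower in stress (edgeR adjusted p under 0.05); bottom, median log2 fold change of stress over control per window with the interquartile range as a line. Members per window run from 26 to 169, and the medians run from -0.13 to 0.26.

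No window was given over to a single direction. The median log2 fold change per window ran from -0.13 at 170 to 180 Mb (window 18) to 0.26 at 100 to 110 Mb (window 11), beside 0.05 over all members and 0.02 over all tested genes. In window 11, 30 of 52 members (57.7%) were higher and 16 (30.8%) lower. In window 13, at 120 to 130 Mb, 43 of 86 members were higher and 27 lower. In window 18 the order was turned round, with 23 of 89 members (25.8%) higher and 37 (41.6%) lower. In total, 13 windows had more higher than lower calls and 8 had more lower calls. Each window also held wide variation, and the interquartile range of log2 fold changes spanned 0 in every one of the 22.

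The 4 members named here had the highest and the lowest fitted changes among those with the same sign in all 24 genotypes. HanXRQChr05g0137261, at 47941612 to 47943111 on the plus strand, had 0 to 11.9 CPM in stress libraries with a median of 2.58, against 0 to 1.47 CPM in control libraries with a median of 0.149. HanXRQChr05g0160471, at 208736939 to 208741248 on the minus strand, had 0 to 7.87 CPM in stress libraries with a median of 1.90, against 0 to 0.957 CPM in control libraries with a median of 0.138. Both were near the lower level limit, with 24 and 27 of the 70 control libraries at 0 counts. For the pair, stress libraries were mostly above the control libraries, with overlap at the low end, and their log2 ratios of mean CPM, with 0.5 CPM added, were 2.25 and 2.08.

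HanXRQChr05g0132571, at 18436911 to 18441235 on the minus strand, had 0 to 1.98 CPM in stress libraries with a median of 0.0908, against 0.195 to 10.7 CPM in control libraries with a median of 3.23. HanXRQChr05g0152231, at 174709909 to 174710895 on the plus strand, was far more abundant, with 0.296 to 241 CPM in stress libraries and a median of 6.66, against 73.5 to 461 CPM in control libraries and a median of 246. Stressed plants thus ranged widely in the abundant gene, while every control library was above 73 CPM, and the 2 ranges overlapped only at the top of the stress values. The log2 ratios of mean CPM were -2.60 and -2.76. Because the first 3 of these genes have groups at 0, only the fitted change of HanXRQChr05g0152231 has a usable error, at -4.23 ± 0.23 on the log2 scale (SE, edgeR).

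**Figure D2:**
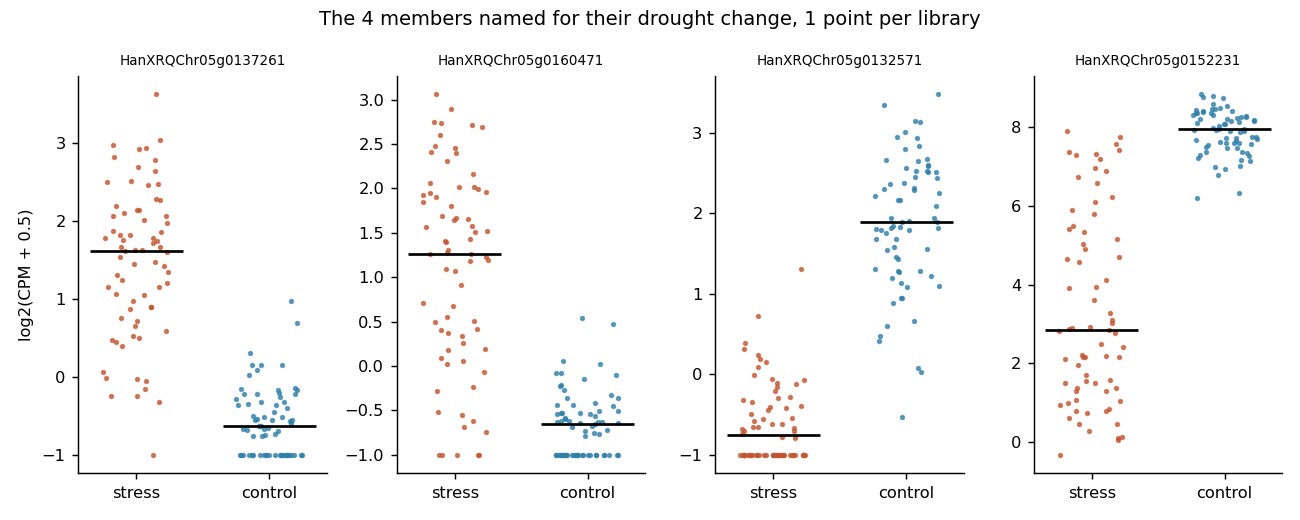
Level of the 4 named drought members in each library, as log2(CPM + 0.5), with stress left of control; 1 point is 1 library and the black line is the median. The first 2 genes are higher in stress (medians 2.58 and 1.90 CPM) than in control (0.149 and 0.138 CPM), and the other pair is lower in stress (0.0908 and 6.66 CPM) than in control (3.23 and 246 CPM).

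Among called members the direction of the drought change was often shared by genotypes, and its size varied. Of the 655 higher members 163, and of the 650 lower ones 206, had the same sign in all 24 genotypes. The same sign in at least 20 was found in 532 and 523. Members were called on the average of these same genotypes, so shared signs are partly built in and the counts are descriptions. Over all members, the median absolute log2 change ran from 0.47 to 0.70 in the 16 hybrids with a middle value of 0.59, and from 0.36 to 0.61 in the 8 lines with a middle value of 0.40. The highest line value was that of SF009, whose libraries disagree among themselves. The 655 higher members had median log2 changes of 0.41 to 0.63 in hybrids and 0.16 to 0.55 in lines. The 650 lower members had medians of -1.21 to -0.65 in hybrids and -0.92 to -0.26 in lines. The weakest medians on both sides, 0.16 and -0.26, were those of SF342, which has a single control library. The 655 and 650 members were called on an average in which 16 of the 24 genotypes are hybrids. That choice favours genes that change in hybrids, so these medians are descriptions. The difference in drought change between hybrids and lines was not tested.

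A dependence of the drought change on genotype, tested as the interaction of genotype and water supply, was called for 274 members (15.5%), beside 11.9% of all tested genes and 14.0% of the genes the same limits keep on 17 chromosomes. Among these 274 members, 91 were also higher and 132 lower on average, 51 had no average call, and 38 were on/off genes in the sense given below. Their fitted changes spanned a median of 3.01 log2 units from the lowest to the highest genotype, whereas the span over all members was 1.87. In 73 of them, 1 genotype or more was higher by over 2-fold and another lower by over 2-fold. These are extremes of 24 fitted changes, each from at most 3 libraries per water supply, and opposite changes were not tested. Groups at 0 counts and doubted libraries were not set apart. HanXRQChr05g0152621, with both extremes resting on single libraries, was 1 of the 73. The count rests on the full set of plants: leaving out replicate 1, 2 or 3 left 42, 37 and 19 members. Dropping the doubted libraries left 275 members (15.5%), beside 12.4% of all tested genes. Per window the share lay between 8.24% (10 to 20 Mb) and 22.6% (110 to 120 Mb). Both places moved without the doubted libraries, to 9.30% at 120 to 130 Mb and 23.1% at 180 to 190 Mb.

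The 8 lines differed in most members. A difference between lines, averaged over water supply, was called for 1386 members (78.2%), beside 75.7% of all tested genes and 77.4% of genes within the same limits on 17 chromosomes. Without the doubted libraries, 1319 members (74.4%) were called over 6 lines, beside 70.1% of all tested genes. Expression in all lines was the common state: 1241 members had a median of at least 1 CPM in each of the 8 lines, and 901 of these were called. In 568 of the 1241 the highest and lowest line means differed by over 2-fold, and in 150 by over 4-fold. The median range was 0.92 log2 units. SF342 was the lowest line most often, in 288 of the 1386 called members, and SF193 the highest most often, in 226. The mean of SF342 includes a single control library. Among called members on in all 8 lines SF342 was again the lowest most often, in 200, whereas SF279 was the highest most often, in 146, with SF193 at 136. SF326, which includes a doubted library, was at either end least often, highest in 112 and lowest in 72.

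The members with the widest line differences among those expressed in all lines reached high levels. HanXRQChr05g0152621, at 175527529 to 175537109 on the plus strand, had a median of 556 CPM in SF193 (183 to 828 over 6 libraries), 456 CPM in SF109 (247 to 680) and 347 CPM in SF317 (265 to 496). Its medians were 8.38 CPM in SF279, 6.13 CPM in SF092, 1.96 CPM in SF342, 1.51 CPM in SF009 and 1.26 CPM in SF326. The 3 high lines did not overlap with SF279, SF092 or SF342. Single libraries stood apart in the other 2 lines: SF009 control 2 had 294 CPM, and SF326 stress 3, the doubted library, had 302 CPM. The line means spanned 8.15 log2 units, with an adjusted p of 7.80e-22 in edgeR's quasi-likelihood test and of 2.22e-38 without the doubted libraries.

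HanXRQChr05g0140641, at 85996125 to 86009016 on the minus strand, had medians of 134 CPM in SF109, 118 CPM in SF326, 113 CPM in SF317, 92.9 CPM in SF092 and 84.1 CPM in SF193. These 5 lines overlapped. SF009 had a median of 30.1 CPM, from 0.714 to 97.9 CPM over its 6 libraries. SF279 had 4.47 to 6.94 CPM and SF342 had 0.865 to 1.35 CPM, both apart from the 5 high lines and from each other. The line means spanned 6.89 log2 units (edgeR quasi-likelihood test, adjusted p = 1.80e-20).

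Line differences were unevenly spread along the chromosome. The share of members called ran from 59.3% at 90 to 100 Mb (window 10) and 62.5% at 50 to 60 Mb (window 6) to 87.5% at 180 to 190 Mb (window 19). Without the doubted libraries window 19 was again the highest, at 88.5%, and window 6 the lowest, at 56.3%. The pairs of lines were not alike in where they differed. For each of the 28 pairs the median absolute difference of line means over the members of a window was taken on the log2 scale. SF193 and SF342 had the largest window medians, 0.82 at 180 to 190 Mb and 0.81 at 190 to 200 Mb. SF193 and SF317 stood at 0.81 in the first of these. In window 3, at 20 to 30 Mb, the pair farthest apart was SF092 and SF317 at 0.78.

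Some pairs were close over long runs of windows. SF279 and SF342 had their lowest window median, 0.24, at 50 to 60 Mb and were the closest of all pairs in windows 6 and 7. Few on/off genes lay there. The states of SF279 and SF342 differed in 0 of 4 genes called in both in window 6 and 0 of 1 in window 7. In window 8 they did differ: HanXRQChr05g0139571 was off in SF279, at a median of 0 CPM, and on in SF342, at 98.2 CPM. The numbers were 0 of 8 in window 9 and 11 of 29 in window 22. SF092 and SF326 were the closest pair over all members, at 0.27, and the closest in 12 of the 22 windows. That order rests on a doubted library. Taken from the median CPM of each line without the 3 libraries, the median difference was 0.31 for SF092 and SF326, against 0.29 for SF109 and SF317.

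**Figure D3:**
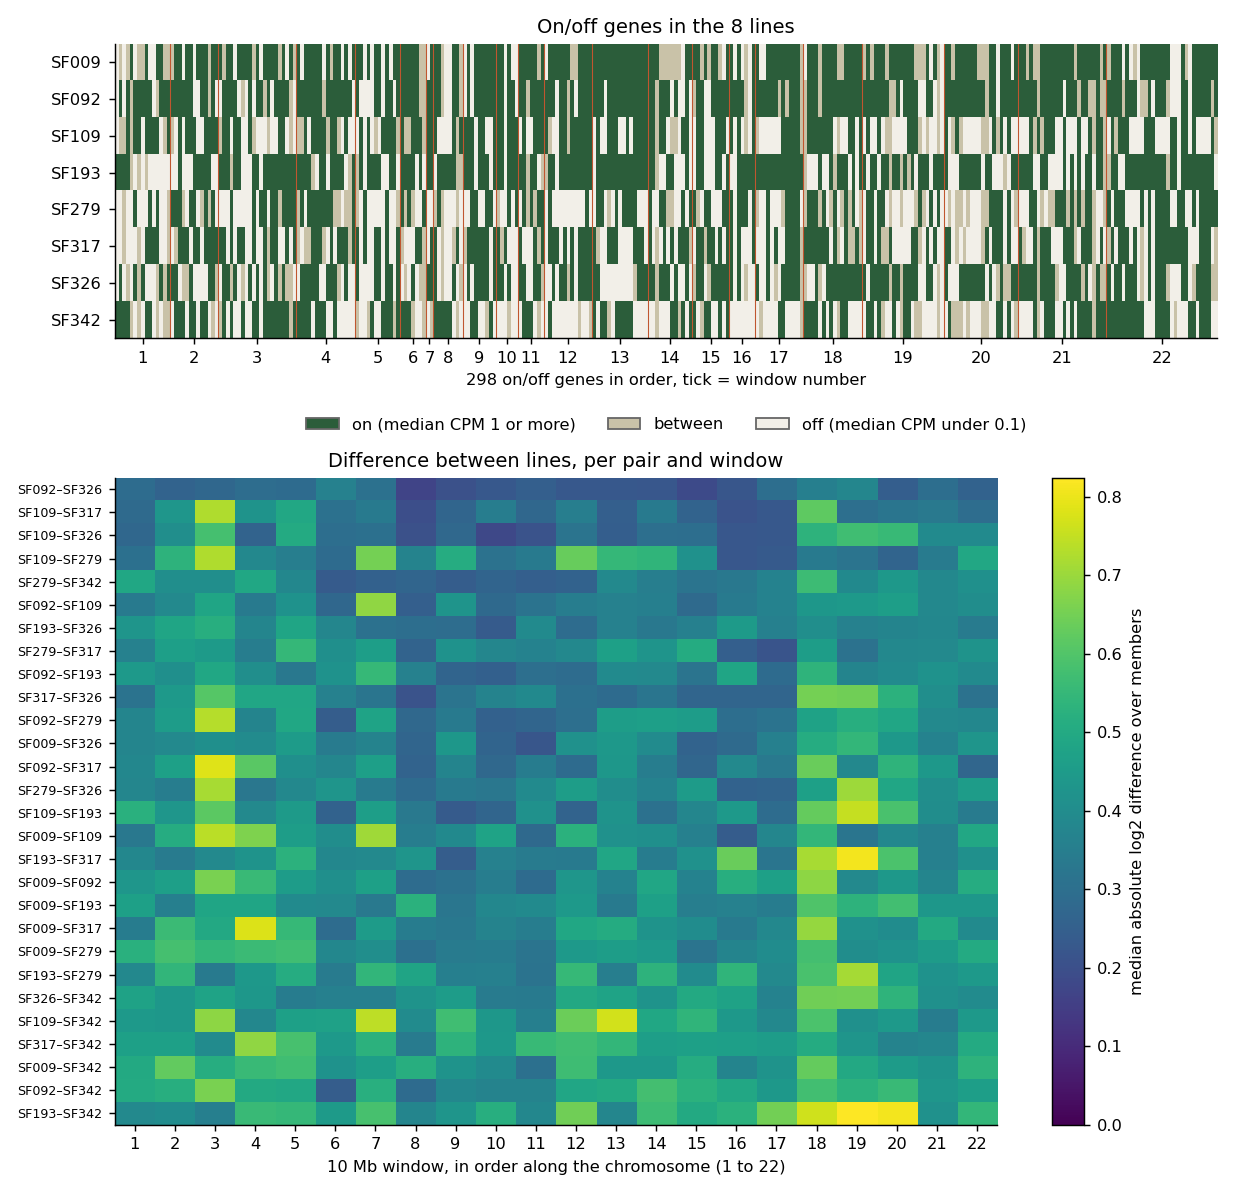
Upper panel, state of the 298 on/off genes (columns, in chromosome order, divided at window borders) in the 8 lines (rows): on, between or off. Lower panel, median absolute log2 difference of line means over members for each pair of lines (rows, closest pair on top) and window (columns). Dark runs, such as SF279 and SF342 in windows 6 to 12, are stretches where a pair was close, and the brightest cell is SF193 and SF342 in window 19 at 0.82.

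At the extreme of line differences were the on/off genes. A line was called on for a gene at a median of 1 CPM or more over its libraries and off at a median under 0.1 CPM, and a member with at least 1 line of each state was counted. There were 298 such members (16.8%), beside 15% of the genes within the same limits on 17 chromosomes. One count is worth 0.0726 CPM in the deepest library and 0.358 CPM in the shallowest, so off means few or no counts, and 82.6% of the 4258 values of off lines were 0 counts. The number was 288 without the doubted libraries, 307 from stress libraries alone and 312 from control libraries alone. On/off genes had a median level of 5.33 CPM in their on lines. Over all libraries, off lines and their hybrids included, the median was 2.90 CPM, against 12.2 CPM in the other members. Their median gene span was 2962 bp, against 4018 bp. The drought test says little of them, because 264 of the 298 had a group at 0: edgeR called 44 higher and 13 lower, voom 117 and 48, and DESeq2 129 and 35.

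On/off genes lay in every window, from 2 of 26 members in window 7 (7.69%) to 30 of 155 in window 22, and the share was highest at 20 to 30 Mb, with 21 of 81 members (25.9%). The lines were unequal. SF342 was off in 133 of the 298, SF279 in 126, and SF109 and SF317 in 112 each. SF326 was off in 96, SF193 in 81, SF092 in 48 and SF009 in 46. The lowest counts were those of SF009, whose libraries disagree among themselves, and SF092, which showed many expressed genes that its hybrids lacked. The state of SF342 rests on 3 stress libraries and 1 control library. All 8 lines had a clear state in 136 of these genes. A single line was off and the other 7 on in 33, and SF109 was that line 11 times. SF279 and SF342 were off together, with the other lines on, in 11 genes. SF193 and SF342 were on together, with the others off, in 6. Between SF092 and SF326 all 44 differences were genes on in SF092 and off in SF326, with and without the 3 doubted libraries. No other pair was one-sided in this way. SF193 and SF279, the pair with the most differences, had 96 genes on in SF193 only and 43 on in SF279 only.

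Neighbouring on/off genes shared states more often when close. Of 72 successive pairs with starts under 0.1 Mb apart, 24 (33.3%) had the same state in every line called for both genes. Of 153 pairs 0.1 to 1 Mb apart, 20 (13.1%) did, and of 72 pairs farther apart, 6 (8.33%). Counted by line, 72.4% of states were the same within 0.1 Mb, 58.4% at 0.1 to 1 Mb and 59.2% beyond. By line, the 2 wider classes were alike and lower than the closest one. These shares carry no test. Overlapping or duplicated genes, between which the counting could share reads, were not set apart.

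The longest run of on/off genes off in the same line, with starts at most 1 Mb apart, was 7 genes in SF326 at 125670322 to 125840318, from HanXRQChr05g0144661 to HanXRQChr05g0144741. The on lines had mean levels of 1.65 to 6.32 CPM there. The 7 genes together had 2 counts in 5 libraries labelled SF326 and 654 counts in the doubted library SF326 stress 3. SF009, SF092 and SF193 were on for all 7, and SF317 was off for 4 of them. SF193 had a run of 6 genes off at 9055571 to 10280660, with 6 counts in its 6 libraries. At 115869577 to 116919983 the same 4 genes were off in SF279 and in SF342, and on in at least 3 of the 4 genes in SF009, SF092, SF109, SF193 and SF326. The other lines had longest runs of 3 to 5 genes.

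The on/off genes of highest level show how states passed to hybrids. HanXRQChr05g0139571, at 73037343 to 73042822 on the plus strand, had 54.1 to 117 CPM over the 10 libraries of the on lines SF193 and SF342, with a median of 93.8, and at most 0.224 CPM in the 36 libraries of the other lines, 28 of them at 0 counts. In the hybrid of both on lines, SF193 × SF342, it had 82.3 to 123 CPM with a median of 92.5. In the 6 hybrids with a single on parent it had 26.7 to 73.1 CPM with a median of 47.5. These hybrid classes did not overlap with each other. In 8 of the 9 hybrids with no on parent the medians were 0 to 0.680 CPM. The exception was SF009 × SF279, with a median of 59.6 CPM and a range of 0.181 to 73.7 CPM. That cross holds a doubted library, and libraries of its parent SF009 disagree among themselves.

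HanXRQChr05g0152121, at 173742255 to 173753266 on the plus strand, varied also among hybrids of 1 class. The on lines SF009, SF092, SF279, SF317 and SF326 had 19.3 to 126 CPM over 30 libraries, and the off lines SF109 and SF342 had 0 to 0.431 CPM over 10. In SF109 × SF342 it had a median of 0.156 CPM. Hybrids with a single on parent had medians from 1.30 CPM in SF109 × SF279 to 26.4 CPM in SF109 × SF317, and hybrids with 2 on parents from 5.84 CPM in SF009 × SF279 to 61.2 CPM in SF092 × SF317, which holds a doubted library, and 56.9 CPM in SF092 × SF326. The hybrids of SF279 were uneven. With the on lines, medians were 5.84 CPM with SF009, a cross that holds a doubted library, and 34.3 CPM with SF092. They were 1.30 CPM with the off line SF109 and 5.41 CPM with SF193, which was neither on nor off at a median of 0.726 CPM. SF279 itself had a median of 43.3 CPM.

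Over all on/off genes, level in the hybrids followed the number of on parents in most crosses. Hybrid libraries enter the mean level by which members were chosen, so a gene silent in hybrids was less likely to be a member. The levels and matches given here and below are therefore descriptions. The hybrid level was divided by the mean of the on lines, and the median over genes was taken for each cross. With 2 on parents it was 1.08 in the middle of the 16 crosses, with a single on parent 0.57, and with none 0.0017. The SD over crosses was 0.19, 0.18 and 0.068. In SF109 and SF193 crossed with SF279, SF317 and SF342, the level with a single on parent lay between 0.54 and 0.65, and the hybrid had the state of its on parents in 98.7% to 99.5% of on/off genes with a clear state in the hybrid and both parents. Without the doubted libraries, which leaves the 8 crosses of SF109 and SF193, the middle value with a single on parent was 0.56.

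The other crosses departed from the labelled parents more often. The states matched in 94.5% of genes in SF009 × SF317 and 93.8% in SF193 × SF326. They matched in 90.2% in SF092 × SF317, 85.8% in SF009 × SF342, 85.0% in SF092 × SF342 and 83.9% in SF092 × SF279. The lowest values were 81.1% in SF109 × SF326, 79.8% in SF092 × SF326, 79.5% in SF009 × SF279 and 75.8% in SF009 × SF326. Each of these crosses matched less on chromosome 5 than over on/off genes of all 17 chromosomes. The value over all chromosomes was 96.1% for SF009 × SF342, 87.1% for SF009 × SF326 and 91.8% for SF092 × SF342. Among these crosses it ran from 83.4% in SF009 × SF279 to 98.0% in SF193 × SF326. These differences were not tested.

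In the crosses of SF009 and SF092 with SF279, SF317 and SF342, the genes lost were nearly all on in the first-named line alone. In SF092 × SF342 the hybrid was off in 32 genes despite an on parent, and in all 32 the on parent was SF092. In SF092 × SF279 this held for 31 of 31, in SF009 × SF279 for 26 of 26 and in SF009 × SF342 for 26 of 27. It held for 11 of 11 in SF009 × SF317 and for 19 of 20 in SF092 × SF317, with the first-named line as the on parent. Genes of that kind were also the more common ones: 103 on/off genes were on in SF092 and off in SF342, against 21 the other way. The corresponding numbers were 86 and 16 for SF092 × SF279, 76 and 17 for SF009 × SF279, and 90 and 21 for SF009 × SF342. They were 67 and 16 for SF009 × SF317, and 79 and 24 for SF092 × SF317. In SF009 × SF326, the cross with the lowest match, 2 lost genes were on in SF009 alone and 7 in SF326 alone, and 25 were on in both. In SF092 × SF326, 28 genes on in both labelled parents were off in the hybrid, and 14 genes off in both were on. In SF109 × SF326, 21 genes on in SF326 alone were off in the hybrid and 17 genes off in both parents were on. Of the 21 lost genes, 16 lay in windows 19 to 22. What sets these hybrids apart from their labelled parents was not tested.

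**Figure D4:**
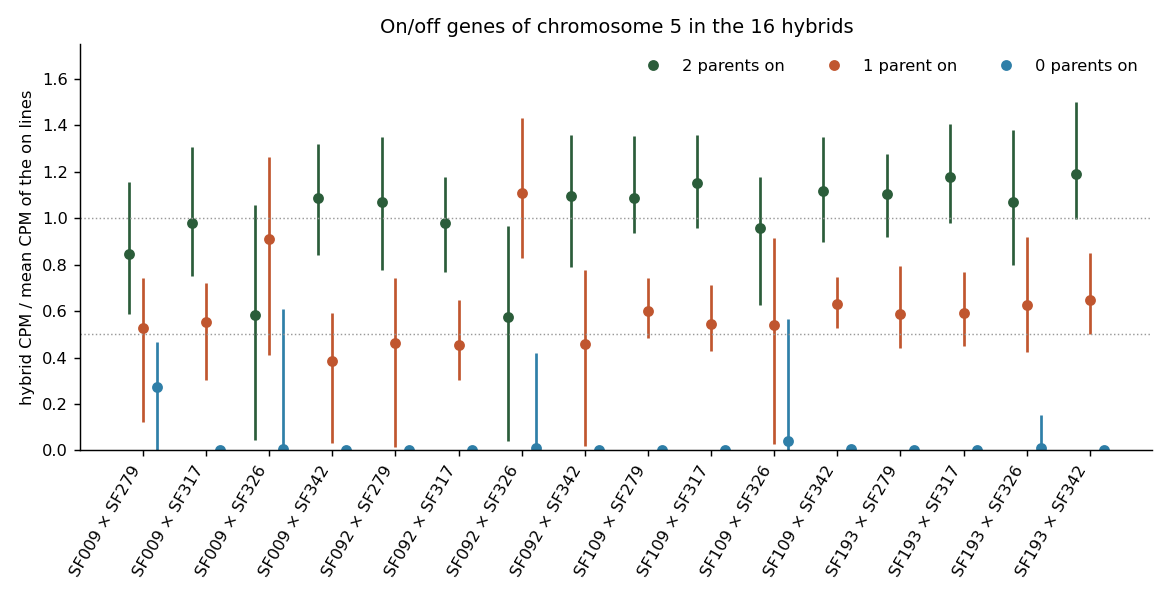
Level of the chromosome 5 on/off genes in the 16 hybrids, as hybrid CPM divided by the mean CPM of the on lines, for genes with 2, 1 or 0 on parents; points are medians over genes and lines are interquartile ranges. Most crosses step down with the number of on parents. In contrast, SF009 × SF326 and SF092 × SF326 are higher with 1 on parent (0.91 and 1.11) than with 2 (0.58 and 0.58). Hybrid libraries also entered the mean level by which members were chosen, so the levels are descriptions.

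Among hybrids, more members were called for the first-named parent than for the second-named one. Called for the first-named parent were 1085 members (61.2%), beside 53.6% of all tested genes and 56.1% of genes within the same limits. This share was the highest of the 17 chromosomes, which ran from 51.0%. The next were close, at 60.4% on chromosome 4 and 60.2% on chromosome 17. An effect of the second-named parent was called for 973 members (54.9%), beside 52.3% of all tested genes and 55.8% of genes within the same limits, and chromosome 5 was number 11 in that order. A departure from the sum of both parents' effects was called for 396 members (22.3%), beside 18.8% of all tested genes and 19.3% of genes within the same limits, in an order where chromosome 5 was number 2. The spread between chromosomes carries no test here. Without the doubted libraries the 3 counts were 1109, 1015 and 475. Without the 4 hybrids of SF326, an alternative chosen after seeing the data, the counts were 936, 922 and 268. These last counts are given without a share of all tested genes.

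Both parents had effects on 705 members and neither on 420. Of the 1386 members that differed between lines, 1161 also showed an effect of a parent in hybrids. A further 192 members with a parental effect had no call between lines. The tests differ in power: in simulated data, 2-fold changes were recovered at 24.6% for lines and 100% for the first-named parent. The 192 are therefore not a count of effects seen in hybrids alone. Over members with an effect of the first-named parent, the 4 parental hybrid means spanned a median of 0.77 log2 units and the 4 lines 1.27, but each hybrid mean averages 4 crosses, which narrows its span. The highest hybrids had the highest line as their first-named parent in 673 of 1085 members (62.0%), and on the second-named side this held for 543 of 973 (55.8%).

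The on and off states were called in the lines alone, but hybrid libraries enter the mean level by which members were chosen, so a gene silent in hybrids was less likely to be a member and the following counts are descriptions. Of 182 members on and off among the first-named lines, 176 (96.7%) were called for the first-named parent, and in 181 the hybrids of on parents were higher, by a median of 2.65 log2 units. On the second-named side, 188 of 219 (85.8%) were called and the hybrids of on parents were higher in 195, by a median of 1.45. Leaving SF326 out of the second-named side gave 151 of 154 called, with hybrids of on parents higher in all 154. With SF109 and SF193 alone on the first-named side, 114 of 114 were called and 112 were higher. Departures from the sum of both parents' effects were called for 205 of 298 on/off members (68.8%), against 139 of the 1241 members on in all lines (11.2%). The sum is taken on the log2 scale, where a gene read in proportion to its number of on parents departs from it by construction.

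Outside the on/off genes, the strongest effects of the first-named parent were found in HanXRQChr05g0129511 and HanXRQChr05g0135901. HanXRQChr05g0129511, at 2343799 to 2345787 on the minus strand, had 5.31 to 28.0 CPM in the 24 libraries of SF092 hybrids with a median of 12.6. Medians were 3.15 CPM in hybrids of SF009 (0.554 to 13.3), 1.47 CPM in hybrids of SF109 (0.298 to 13.5) and 0.972 CPM in hybrids of SF193 (0 to 3.07). Hybrids of SF092 and SF193 did not overlap. Hybrids of SF092 were higher than the other 12 hybrids by 2.85 ± 0.12 log2 units (SE, edgeR adjusted p = 9.85e-44), and the line SF092 was also the highest line, with a median of 17.2 CPM.

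HanXRQChr05g0135901, at 38971230 to 38973817 on the minus strand, had strong effects on both sides. Hybrids of SF193 had 6.27 to 16.9 CPM with a median of 8.62, and hybrids of SF279 had 5.83 to 16.9 CPM with a median of 8.46. Medians were 1.10 to 1.82 CPM in hybrids of the other first-named lines and 0.766 to 2.49 CPM in hybrids of the other second-named lines. The lines SF279 and SF193 themselves stood at medians of 15.4 and 14.2 CPM, SF342 at 3.44 CPM, and the other 5 lines at 0.229 to 0.910 CPM. Adjusted p-values in edgeR were 1.01e-39 for the first-named and 5.97e-41 for the second-named parent. The second-named parent had its next strongest effect in HanXRQChr05g0143691, at 119231932 to 119238249 on the plus strand, with 8.51 to 24.1 CPM in hybrids of SF317 and a median of 15.2. Hybrids of SF279, SF326 and SF342 had medians of 2.93, 1.70 and 1.02 CPM. Hybrids of SF317 were higher than the other 12 hybrids by 3.16 ± 0.16 log2 units (SE, edgeR adjusted p = 1.72e-37), and the line SF317 had a median of 31.9 CPM, the highest of the lines.

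The 8 parents left different marks on the chromosome. Each parent's 4 hybrids were compared with the 12 hybrids of the other parents on its side, so these comparisons share hybrids. SF193 had the most calls, 752 members (42.4%), beside 32.4% of all tested genes and 35.3% of genes within the same limits. SF092 had 636 (35.9%), beside 29.5% and 32.3%. SF317 had 627 (35.4%), beside 30.5% and 33.9%. SF109 had 599 (33.8%), beside 25.9% and 28.5%. SF342 had 550 (31.0%), beside 29.8% and 32.9%. SF009 had 519 (29.3%), beside 26% and 29.0%. SF279 had 512 (28.9%), beside 30% and 33.1%. SF326 had 313 (17.7%), beside 17.4% and 19.6%. Within the same limits and with all libraries, the shares of SF342, SF279 and SF326 were thus below those of all chromosomes together. That of SF009 was close to it. Leaving out the doubted libraries gave 591 members (33.3%) for SF342, 576 (32.5%) for SF279, 361 (20.4%) for SF326 and 504 (28.4%) for SF009. Shares over all chromosomes are not given for that set, so the comparison holds for the full set only. The shares of SF193 and SF109 were each the highest among the 17 chromosomes. The next was 38.6% on chromosome 8 for SF193 and, close by, 33.5% on chromosome 13 for SF109.

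Parental effects also had places. Hybrids of SF193 differed in 65 of 104 members (62.5%) at 180 to 190 Mb, window 19, against 24.7% at 10 to 20 Mb, and the same window was their highest without the doubted libraries, at 64.4%. It was also the window where SF193 lay farthest from SF342 and SF317 among the lines. Hybrids of SF279 differed in 11.3% of members at 110 to 120 Mb and in 42.9% at 150 to 160 Mb. Hybrids of SF326 differed in 7.41% of members at 90 to 100 Mb and in 32.7% at 160 to 170 Mb. Hybrids of SF109 were most distinct at 80 to 90 Mb, in 27 of 51 members (52.9%). For all first-named parents together the share of members ran from 38.9% at 90 to 100 Mb to 71.7% at 110 to 120 Mb. Without the doubted libraries the lowest window was the same, at 40.7%, and the highest was at 180 to 190 Mb, at 72.1%. Over the 22 windows, the share called between lines and the share called for the first-named parent had a Pearson r of 0.65 and a Spearman rho of 0.53. The corresponding values for first-named and second-named parents were 0.28 and 0.27. These describe 22 windows of unequal size that share all libraries.

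**Figure D5:**
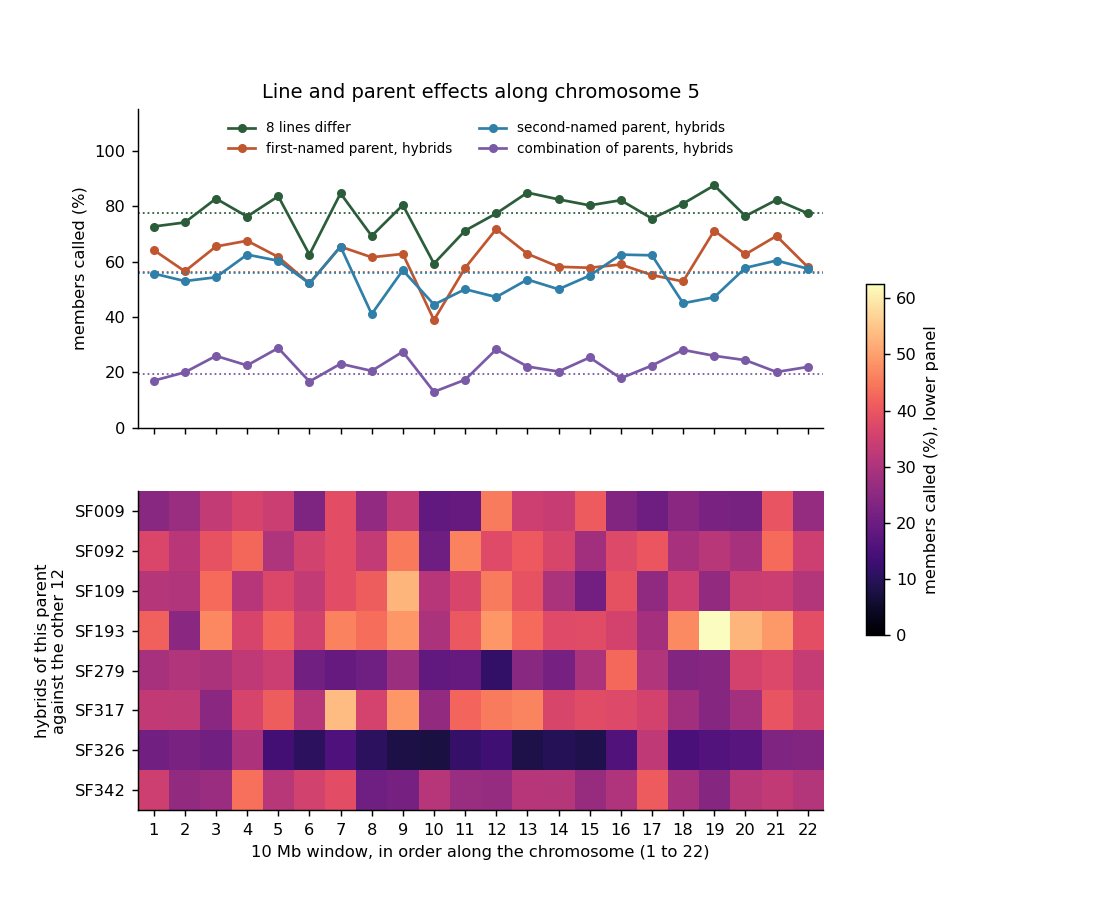
Upper panel, percent of members called per window for differences among the 8 lines and, in hybrids, for either parent (first-named or second-named) and for the combination; dotted lines are the shares over genes within the same limits on 17 chromosomes, and those of the parents nearly coincide (56.1% and 55.8%). Lower panel, percent of members called for each parent (rows) and window (columns); the brightest cell is SF193 in window 19 at 62.5%, and SF326 is darkest, at 7.41% in window 10.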

How the data were processed

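The authors deposited whole-number read counts per gene in 142 libraries; per the file headers the table also holds gene positions. Per the submitters' processing notes, R 3.3.3 and edgeR 3.16.5 were used, in roles that are not described. No source used here names an aligner, counting tool or genome build. Per the labels' protocols, libraries were oriented TruSeq libraries read as pairs. All 142 value columns were tied to a sample (0 were left over). The members and lists were chosen with earlier results of these data known.

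CPM was computed from library totals. Counts were filtered with filterByExpr (36989 genes left; 17 ribosomal RNA rows were removed) and scaled by TMM. One mean for each of 48 groups was fitted by edgeR 4.0.16 in R 4.3.3 (glmQLFit, robust, trended dispersion), and contrasts were tested by the quasi-likelihood F-test with Benjamini-Hochberg adjustment over all tested genes. The lone SF342 control library is assumed to vary like other groups. In simulated data with known changes in 6000 genes, 4-fold changes were recovered at 100% for drought, 97.1% for lines and 100% for the first-named parent; 2-fold changes were recovered at 24.6% for lines. Alternatives used limma 3.58.1 and DESeq2 1.42.0.

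Named genes were the 2 highest and 2 lowest drought changes with 1 sign in all genotypes, the 2 widest line ranges, the 2 most abundant on/off genes, the 2 smallest p-values per parental side outside on/off genes, and the ends of long off runs, here given for the longest.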

Additional observations from a re-analysis of the deposited data

Results flagged for a closer look

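The drought change differed between the 24 genotypes in 274 members by the interaction test of edgeR (adjusted p under 0.05). Among the named members, HanXRQChr05g0152231 had a drought change that differed between genotypes, with fitted log2 changes from -7.55 in SF193 × SF342 to -0.82 in SF193 (edgeR adjusted p of the interaction 0.00232, and 0.00341 without the doubted libraries). Over all alternatives its adjusted p ran from 0.00212 to 0.242, the highest being without replicate 3.

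HanXRQChr05g0152621 also had a drought change that differed between genotypes, with fitted log2 changes from -3.94 in SF009 to 6.08 in SF326 and an edgeR adjusted p of 0.0437. The adjusted p was 0.757 without the doubted libraries and ran from 0.0268 to 0.966 over the alternatives. The SF326 value rests on the doubted library SF326 stress 3, at 302 CPM beside 0.717 to 2.01 CPM in the other 5 SF326 libraries, and the SF009 value on SF009 control 2, at 294 CPM.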

How the results depend on the processing

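Of 90 alternative values of the main counts and levels, 87 stayed within 1.5 times the reported count or within 1 SD of the reported level. The 3 others were the members with a drought change that depends on genotype: leaving out 1 replicate gave 19 to 42 in place of 274, with fewer plants per group. Of 94 alternative values of named genes, 93 kept their direction and side of the threshold; the drought change of HanXRQChr05g0160471 missed the threshold without replicate 3. With the replicate block the counts were 653 higher and 651 lower for drought, 252 for the interaction, 1379 for lines, 1082, 973 and 395 for the first parent, the second parent and their combination. Over 69 same-numbered stress and control pairs, deviations correlated at -0.18 to 0.39 with a median of 0.12, and 38 were over 0.1. The labels place the plants in 3 blocks but do not say that the replicate number marks a block. The numbers were therefore not taken as pairs. Windows with a median drought change above 0 numbered 17, against 22 with library totals (18 after removing the shift of all genes) and 16 of 23 windows shifted by 5 Mb. Depth limits the on/off calls, since 1 count in the shallowest library exceeds the off limit of 0.1 CPM.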
